A study of Mus musculus with 13 samples.

Results

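The 10 genes described here encode enzymes of glutathione synthesis (Gclc, Gclm and Gss) and antioxidant or stress proteins that the transcription factor NRF2 is known to switch on (Nqo1, Srxn1, Txnrd1, Hmox1, Osgin1, Sqstm1 and Htatip2). They were followed in the intestine (its proximal small part) of C57BL/6J mice, all male. The mice ate either chow with 0.005% ezetimibe, a drug that blocks the sterol uptake protein NPC1L1 of the enterocyte surface (5 mice), or regular chow without it (8 mice). Age was not given in the sources used here. RNA of each mouse was hybridised to its own Illumina MouseRef-8 v2.0 array, a glass slide of beads that carry gene probes. There were 2 slides, with 2 ezetimibe and 4 control arrays on slide 1 and 3 ezetimibe and 4 control arrays on slide 2. On slide 1 every control array stood at an earlier position than either ezetimibe array. A difference within slide 1 therefore cannot separate treatment from position. On slide 2 the positions of the groups were mixed. The members were found as all probes whose symbol is one of the 10 genes, which gave 16 of the 25697 probes and 10 of the 17895 named genes. Of these, 14 probes of 9 genes passed a filter that asked for detection above background (detection p under 0.05) on at least 5 of the 13 arrays, among 11887 probes that passed in all.

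NRF2, encoded by Nfe2l2, is held in the cytoplasm by KEAP1, which sends it for degradation. Electrophiles and oxidants modify KEAP1, and NRF2 then accumulates, enters the nucleus and binds antioxidant response elements together with small MAF proteins. Its targets make and use glutathione, reduce quinones and oxidised thiols, and conjugate and export foreign compounds. The small intestine, which meets ingested electrophiles, carries many of them.

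The genes were chosen with their difference between ezetimibe and control arrays already known, so that difference is given below as a description only. It supports no statement about the group of genes. Levels are log2 intensities after background correction, quantile normalization and removal of the fitted difference between slides. A difference is the ezetimibe mean minus the control mean with slide in the model, in log2 units, with the standard error (SE) of limma's moderated fit. Array means are followed by ± the standard deviation (SD), with n = 5 ezetimibe and n = 8 control arrays throughout. A probe is called where limma's Benjamini-Hochberg adjusted p over all tested probes was under 0.10.

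The tissue label was checked first. Of the enterocyte markers, 5 of the 7 on the array were tested, and their mean level was 12.86 ± 0.12 in ezetimibe arrays and 12.78 ± 0.11 in control arrays. The probes of Fabp1 and Fabp2, the fatty acid binding proteins of enterocytes, were detected on 0 of the 13 arrays, so an undetected probe on this platform need not mean an absent transcript. All 3 duodenal markers were tested, at 8.18 ± 0.21 in ezetimibe and 7.87 ± 0.33 in control arrays. Exocrine pancreas markers were at levels between 6.16 and 13.10 in ezetimibe arrays and between 6.06 and 12.12 in control arrays, a wide spread over the arrays of both groups. The array medians lay between 146.9 and 152.8 signal units on slide 1 and between 120.7 and 127.9 on slide 2, and 6330 probes differed between slides (limma, adjusted p under 0.10). In whole tissue, a change in the number of cells of a type and a change in RNA per cell cannot be told apart.

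NRF2 binds a core sequence that is usually written TGACNNNGC. The letters were searched on both strands in the RefSeq promoter windows of GRCm38.p6, which run from 250 bases before to 50 bases after a start site. Of the 10 genes, 8 had at least 1 window, and 5 of their 11 windows held a match, in 4 genes. Among all windows of this length, 4071 of 32851 (12.4%) held one, as did 14% of 27025 genes. The matches are shown because they are the stretches of these promoters that carry the element's letters. They are printed on the plus strand with 10 bases to either side, with the match in capitals, and a match on the opposite strand shows its reverse complement.
Gclm, chr3:122245413-122245441: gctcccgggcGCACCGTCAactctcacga
Srxn1, chr2:152105542-152105570: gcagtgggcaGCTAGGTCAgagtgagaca
Txnrd1, chr10:82859104-82859132: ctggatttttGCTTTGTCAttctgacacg
Htatip2, chr7:49759107-49759135: ggccgcgagcGCGCTGTCAcccggaagac
Htatip2, chr7:49759453-49759481: gtctgagctgTGACTCAGCacttccctag
Counted from the start site of its window, the Gclm match lay at -134 to -126 and that of Srxn1 at 29 to 37. The Gclm match lies before the annotated gene and the Srxn1 match within its first bases (gene start chr2:152105524). The Txnrd1 match was in 1 of the gene's 3 windows, at -92 to -84. The first Htatip2 match lay at 12 to 20 of 1 window. The second, at -49 to -41 of the other of 2 windows, overlaps TGANTCA, the AP-1 element. A match is a run of letters and no evidence of binding, and the windows of Nqo1, Gss, Osgin1 and Sqstm1 do not hold these letters.

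Gclm encodes the modifier subunit of glutamate-cysteine ligase, the enzyme that carries out the rate-limiting step of glutathione synthesis. Its gene starts at chr3:122245487 on the plus strand of GRCm38.p6, and the 180 bases of the RefSeq window that precede this start are shown with the match in capitals to place it in its surroundings.
Gclm upstream, chr3:122245307-122245486: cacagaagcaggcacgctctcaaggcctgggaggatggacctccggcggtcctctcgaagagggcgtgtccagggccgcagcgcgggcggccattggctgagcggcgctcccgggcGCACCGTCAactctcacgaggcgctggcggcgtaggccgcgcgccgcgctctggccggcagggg
The level of Gclm was 9.98 and 10.14 in the ezetimibe arrays of slide 1 and 10.28, 10.19 and 10.14 in those of slide 2, against a lowest, median and highest level of 9.55, 9.69 and 9.99 in the control arrays. A single control array, control 4, reached just above the lowest ezetimibe array, and the other control arrays lay below all ezetimibe arrays. The means were 10.15 ± 0.11 in ezetimibe and 9.73 ± 0.15 in control arrays, a difference of 0.42 ± 0.085 (SE) or 1.34-fold. The difference was 0.29 within slide 1 and 0.52 within slide 2.

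Gclc, which encodes the catalytic subunit of the same ligase, has 1 probe on the array, and it was not tested. It was detected above background on 1 of the 5 ezetimibe arrays (ezetimibe 5, at a level of 5.36) and on 0 of the 8 control arrays. Levels of this probe were otherwise within the dim range of the array, and no difference is given.

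Gss encodes glutathione synthetase, which adds glycine to complete the tripeptide, and 3 probes report on it. The gene lies at chr2:155563181-155592810 on the minus strand. The brightest probe was at 9.84 and 9.85 in the ezetimibe arrays of slide 1 and at 10.08, 9.69 and 9.76 in those of slide 2, against 9.15, 9.41 and 9.66 (lowest, median and highest) in the control arrays. The groups did not overlap on this probe. Its mean was 9.84 ± 0.15 in ezetimibe and 9.42 ± 0.16 in control arrays, a difference of 0.42 ± 0.093 (SE), and the difference was 0.42 within each slide. The other probes differed by 0.44 ± 0.092 and 0.31 ± 0.13, and on both of them the groups overlapped. After slide and treatment were taken out, the brightest probe followed the second across the 13 arrays (r = 0.74) but the third much less (r = 0.27), so the probes of Gss do not report the array-to-array variation alike.

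**Figure D1:**
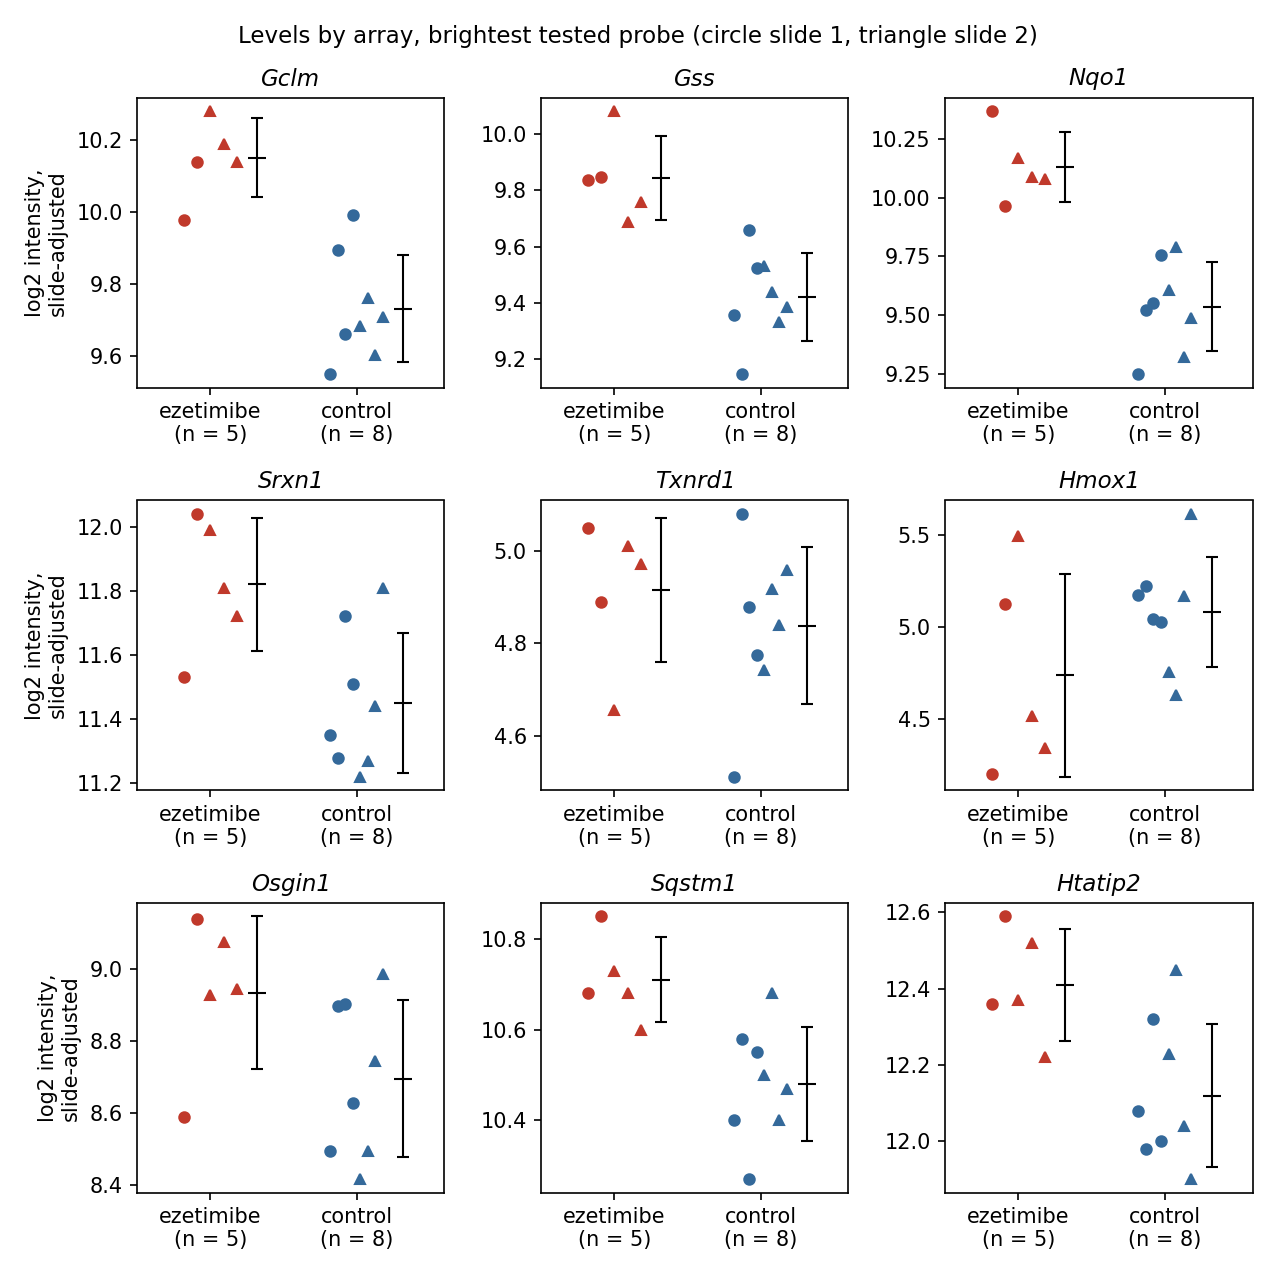
Level of the brightest tested probe of each of 9 genes by array (log2 intensity, slide-adjusted, vertical axes differ and do not start at 0), ezetimibe left and control right, circles for slide 1 and triangles for slide 2, with the mean and SD beside the points. The groups do not overlap for Gss and Nqo1, overlap by 1 control array for Gclm and Sqstm1, and lie over each other for Txnrd1. For Hmox1 they overlap, with ezetimibe 1, 4 and 5 below all control arrays.

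Nqo1 encodes a quinone reductase that is the textbook readout of NRF2 activity, and its gene lies at chr8:107388225-107403205 on the minus strand. Its detected probe was at 10.37 and 9.97 in the ezetimibe arrays of slide 1 and at 10.17, 10.09 and 10.08 in those of slide 2, against 9.25, 9.54 and 9.79 (lowest, median and highest) in the control arrays. Every ezetimibe array lay above every control array. The means were 10.13 ± 0.15 in ezetimibe and 9.54 ± 0.19 in control arrays, which is the largest difference among the 14 tested probes, 0.60 ± 0.10 (SE) or 1.52-fold. It was 0.65 within slide 1 and 0.56 within slide 2. The other Nqo1 probe was detected on 0 of the 13 arrays and was not tested.

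Srxn1 encodes sulfiredoxin, which repairs over-oxidised peroxiredoxins. Its brightest probe was at 11.53 and 12.04 in the ezetimibe arrays of slide 1 and at 11.99, 11.81 and 11.72 in those of slide 2, against 11.22, 11.39 and 11.81 (lowest, median and highest) in the control arrays. The groups overlapped, because ezetimibe 1 lay among the controls and the control arrays 3 and 8 lay among the ezetimibe arrays. The difference was 0.37 ± 0.11 (SE), with 0.26 ± 0.14 and 0.18 ± 0.14 on the other probes. Txnrd1, the cytosolic thioredoxin reductase, was dim, with detection on 3 of 5 ezetimibe and 3 of 8 control arrays. Its difference was 0.077 ± 0.12 (SE), and it was below 0 (-0.026) with position on the slide as a covariate.

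Hmox1 encodes the inducible haem oxygenase and is the only tested member whose difference was below 0. Its levels were 4.20 and 5.13 in the ezetimibe arrays of slide 1 and 5.50, 4.51 and 4.34 in those of slide 2, against 4.63, 5.11 and 5.62 (lowest, median and highest) in the control arrays. The ezetimibe arrays 1, 4 and 5 lay below all controls, and ezetimibe 2 and 3 lay among them. The difference was -0.34 ± 0.22 (SE), and the probe was detected on 2 of 5 ezetimibe and 6 of 8 control arrays, so part of these levels is background. With the deposited processed values the difference was -0.053. Those values lay between 223.43 and 253.84 for this probe, a narrow range that compresses log2 differences, so the 2 differences are not on a like scale.

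Osgin1 encodes an oxidative stress-induced growth inhibitor. It was at 8.59 and 9.14 in the ezetimibe arrays of slide 1 and at 8.93, 9.08 and 8.95 in those of slide 2, against 8.42, 8.69 and 8.99 (lowest, median and highest) in the control arrays. Ezetimibe 1 was again the lowest of its group and lay among the controls, and control 8 lay among the ezetimibe arrays. The difference was 0.24 ± 0.12 (SE).

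Sqstm1 encodes p62, an autophagy receptor that also binds KEAP1. It was at 10.68 and 10.85 in the ezetimibe arrays of slide 1 and at 10.73, 10.68 and 10.60 in those of slide 2, against 10.27, 10.49 and 10.68 (lowest, median and highest) in the control arrays. Control 6 reached into the ezetimibe range, and the other control arrays lay below it. The difference was 0.23 ± 0.076 (SE). Htatip2, also named TIP30, encodes a short-chain dehydrogenase-like protein with 2 probes that followed each other closely across arrays (r = 0.92 after slide and treatment were taken out). They differed by 0.29 ± 0.096 and 0.30 ± 0.083 (SE). The brighter probe averaged 12.41 ± 0.15 in ezetimibe and 12.12 ± 0.19 in control arrays, with overlap.

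Over all members, 13 of the 14 tested probes and 8 of the 9 tested genes had a difference above 0, and the median over genes was 0.29, beside -0.0011 over all tested probes. In limma's fit 3 probes were called, 1 each of Gclm, Gss and Nqo1, all higher with ezetimibe. Of all tested probes 0.252% were called in either direction, 0.236% were called higher, and 0.279% of genes were called by their brightest probe. By their brightest probe, which for Gss missed the threshold, the called members are Gclm and Nqo1. Every ezetimibe array lay above every control array for 1 probe each of Gss and Nqo1, beside 0.496% of all probes. As the members were chosen on this contrast, nothing is read from these shares. The Nqo1 probe was also called in all 13 fits that left out 1 array. The Gclm probe was called only in the fits without control 2, control 4, control 6 or ezetimibe 1, and the second Gss probe only in those without control 3, control 6 or ezetimibe 1. The fit without control 6 also called the second Htatip2 probe. With position on the slide as a covariate, Nqo1 was the only member called. The differences of Gclm and the second Gss probe were then 0.42 and 0.45. These numbers of arrays limit the precision of every value.

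**Figure D2:**
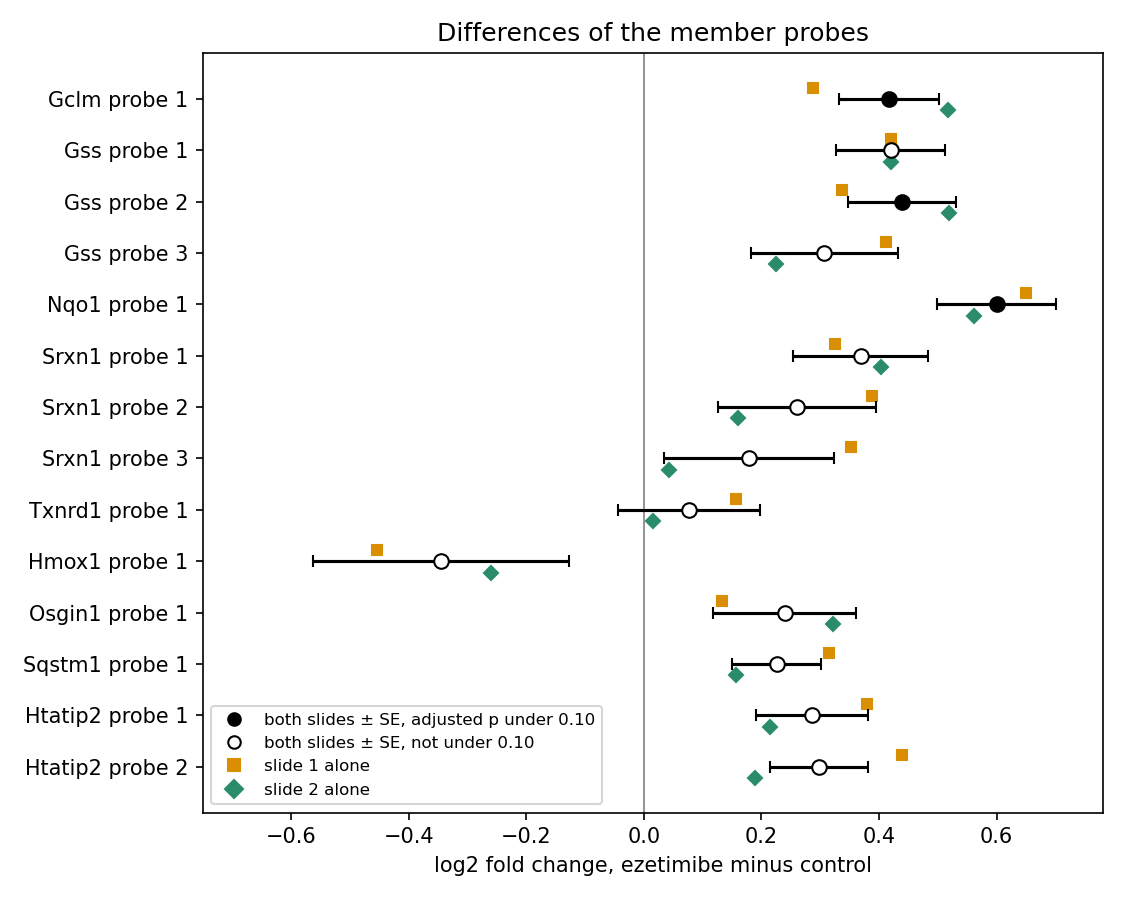
Difference of each of the 14 tested member probes (log2 fold change, ezetimibe minus control, with SE), filled where the adjusted p over all probes was under 0.10, and the differences within slide 1 (squares) and slide 2 (diamonds). Probes of 1 gene are numbered from the brightest, and Hmox1 is the only probe left of 0, on both slides.

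Whether the difference itself depended on the slide was not the measure on which the genes were chosen. It is not independent of that choice, because a large product widens the SE of the difference in the fit without it. In limma's fit with the product of slide and treatment, 0 of the 11887 tested probes were called (0%). An unadjusted p under 0.05 was seen for 317 of them. None of the 14 tested member probes was among these 317, and nothing is read from that. The largest product among the members was -0.31 ± 0.29 (SE), on the third Srxn1 probe, and the lowest unadjusted p was 0.14 (limma), on the second Htatip2 probe. With 2 and 3 ezetimibe arrays per slide, the SE of the product was between 0.15 and 0.45 for member probes, so its precision was low beside the differences themselves.

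How the members varied among arrays of the same group is a different measure from the contrast. The genes were still proposed with earlier results of these arrays known, so the p-values of their pairs describe these arrays only. For each pair of the 9 tested genes, Pearson's r of the residuals after slide and treatment was taken over the 13 arrays (36 pairs, 2-sided permutation test of pairings, adjusted over the 36). The test treats the residuals as 13 free values, although the fitted slide and treatment terms tie them to each other. Its p-values therefore tend to be too small, and pairs close to the threshold may not pass a stricter test. With quantile normalization the median r was 0.13, with 21 of 36 pairs above 0 and a range from -0.50 (Gss with Txnrd1) to 0.75. The pattern depended on the scaling. With median scaling in place of quantile normalization the median r was 0.40, 29 of 36 pairs were above 0 and 15 passed. Those 15 held all 10 pairs of Gclm, Gss, Nqo1, Sqstm1 and Htatip2, with r between 0.64 and 0.87 (highest for Gclm with Sqstm1). With quantile normalization 0 of these 10 passed, and the 3 highest pairs were those among Srxn1, Osgin1 and Hmox1. The share of all probe pairs that passed was computed for neither scaling, so nothing about the members is read from these counts. Srxn1 correlated with Osgin1 (r = 0.75, permutation p = 0.00453, adjusted p = 0.0817; Spearman's rho = 0.79, permutation p = 0.00234, adjusted p = 0.0842). Srxn1 correlated with Hmox1 (r = 0.74, permutation p = 0.00454, adjusted p = 0.0817), although by rank the adjusted p was 0.171 (rho = 0.70, permutation p = 0.00948). For Hmox1 and Osgin1 r was 0.58 (permutation p = 0.0386, adjusted p = 0.463; rho = 0.62, permutation p = 0.0277, adjusted p = 0.261).

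After slide and treatment were taken out, ezetimibe 1 was the lowest array in Srxn1 and control 8 and control 3 were the highest (-0.28, 0.36 and 0.27). Ezetimibe 1 was also lowest in Osgin1 (-0.35), where control 8 and control 3 were again highest (0.29 and 0.21). In Hmox1, ezetimibe 1 was lowest (-0.54) and control 8 high (0.54), but ezetimibe 3 was highest (0.76) and control 3 near 0 (-0.037). The Hmox1 probe was detected on 2 of 5 ezetimibe and 6 of 8 control arrays, and ezetimibe 1 was not among these. Its r with other genes therefore rests in part on background levels. Without control 8 and control 3, r was 0.62 for Srxn1 with Osgin1 and 0.79 for Srxn1 with Hmox1. Within slide 1 (n = 6) the values were 0.67 and 0.56, and within slide 2 (n = 7) they were 0.83 and 0.88. Among the 11886 other tested probes, Osgin1 ranked 99 and Hmox1 ranked 112 by r with Srxn1, so other probes on the array followed Srxn1 more closely than they did.

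The size of r was above 0.6 in all 13 runs that left out 1 array, but the calls were not steady. Neither pair passed in 8 of them (without control 5, 6, 7 or 8 or ezetimibe 1, 2, 4 or 5, with adjusted p up to 0.332), and without control 3 only Srxn1 with Hmox1 passed. The 2 other Srxn1 probes had r of 0.53 and 0.44 with the brightest one. The pair of Gclm and Nqo1, both called members, had r = 0.39 (permutation p = 0.182, adjusted p = 0.65), and -0.048 without control 4 and control 1. With 1 array left out its r ran from 0.17 (without control 4) to 0.79 (without ezetimibe 1, permutation test, adjusted p = 0.124), and with median scaling it was 0.79 (permutation test, adjusted p = 0.0148). When slide alone was removed, so that the treatment difference stayed in the values, 11 of 36 pairs passed, with r = 0.84 for Gclm with Nqo1. The members were chosen on that difference, which by itself raises r between them, so nothing is read from these 11 pairs.

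**Figure D3:**
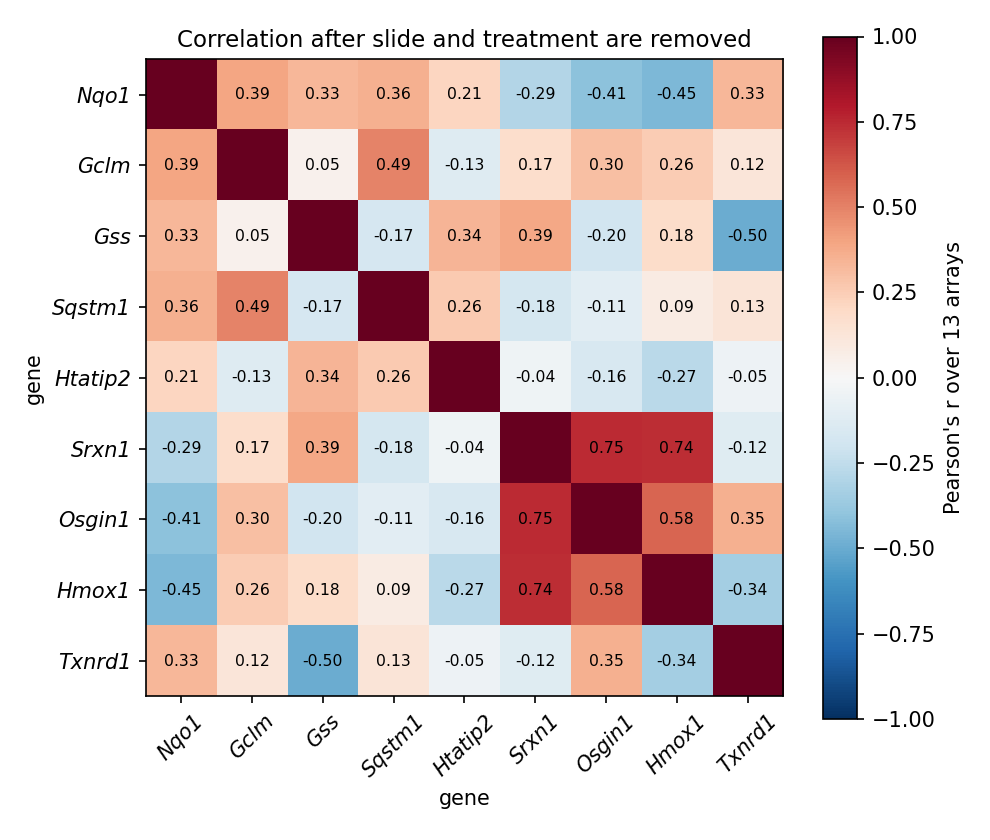
Pearson's r between the 9 tested genes over 13 arrays after slide and treatment were removed (brightest tested probe each, quantile-normalized values; red above 0, blue below 0). The block of Srxn1, Osgin1 and Hmox1 has r between 0.58 and 0.75, and Nqo1 has values from -0.29 to -0.45 with all 3 of them. Hmox1 was detected on 2 of 5 ezetimibe and 6 of 8 control arrays, so part of its values is background.

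The 5 genes outside the members whose residuals were most like the members' mean were Cdkn2b, a cyclin-dependent kinase inhibitor (r = 0.94 over 13 arrays), Egln3, a prolyl hydroxylase that acts on hypoxia-inducible factor (r = 0.91), Plekhf2, an endosomal protein (r = 0.89), Stx3, a syntaxin of the apical membrane (r = 0.89), and Pcsk4, a proprotein convertase (r = 0.88). They were picked as the highest of all tested probes, so no p is given. None was called between ezetimibe and control arrays, and their differences lay between 0.055 ± 0.17 (Pcsk4) and 0.48 ± 0.18 (SE, Egln3).

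Other genes of the pathway and of other stress responses were then read from 11 lists, of which 79 of 97 genes had a tested probe. Heat shock, ATF4, aryl hydrocarbon receptor and metallothionein lists are among the 11, so the 79 are not all NRF2 pathway genes. In limma's fit 3 of the 79 were called higher with ezetimibe and 0 lower (3.8%, beside 0.279% of all genes), and all 3 belong to a single list. These lists were written with earlier results of these arrays known, so their counts are not independent evidence. The regulators themselves stood near 0. Of NRF2 and its regulators, 0 of 8 tested genes were called in either direction, and the median difference was -0.018. Nfe2l2, the gene of NRF2, was at 7.43 ± 0.26 in ezetimibe and 7.46 ± 0.17 in control arrays, a difference of -0.029 ± 0.12 (SE; limma, adjusted p = 0.984). The difference of Keap1 was -0.021 ± 0.094 (SE) on its brightest probe and 0.16 ± 0.11, 0.19 ± 0.12 and 0.052 ± 0.099 on its 3 others, none of them called. Those of Mafg, a small MAF partner, and Nfe2l1, a relative of NRF2, were 0.16 ± 0.11 and 0.10 ± 0.11. None of these values says how much NRF2 protein was present.

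The list of conjugation, carbonyl reduction and export held the called genes. All 16 tested genes had a difference above 0, with a median of 0.41, and 3 were called higher. Cbr3, a carbonyl reductase, averaged 11.47 ± 0.087 in ezetimibe and 10.21 ± 0.37 in control arrays, and rose by 1.26 ± 0.15 (SE; limma, adjusted p = 0.000643), with 1.31 ± 0.19 on its second probe. Gsta3, a glutathione transferase, averaged 10.51 ± 0.24 in ezetimibe and 9.34 ± 0.35 in control arrays, and rose by 1.16 ± 0.16 (SE; limma, adjusted p = 0.00217). Gstm1, another glutathione transferase, averaged 12.22 ± 0.17 in ezetimibe and 11.28 ± 0.39 in control arrays, and rose by 0.94 ± 0.17 (SE; limma, adjusted p = 0.0235). The probes of each transferase disagreed, since the second Gsta3 probe differed by 0.19 ± 0.17 and the second Gstm1 probe by -0.42 ± 0.17 (SE), neither called. Members of these transferase families are close in sequence, so a probe may also read a relative.

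Cbr3 and Gsta3 were called in all 13 fits that left out 1 array, and Gstm1 in all but the one without ezetimibe 2 (difference 0.88). The call of Gstm1 was also lost with no slide term, with position as a covariate and in each slide alone, where its difference lay between 0.75 and 1.09. Those of Cbr3 and Gsta3 were lost in slide 1 alone. A larger but more variable difference was that of Akr1b8, an aldo-keto reductase, at 1.5 ± 0.33 (SE; limma, adjusted p = 0.108), named here after its value was seen. It was at 10.15 ± 0.65 in ezetimibe and 8.66 ± 0.68 in control arrays.

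A list of 6 genes holds G6pdx, Pgd, Me1 and Idh1, whose enzymes make NADPH, the reductant of the glutathione and thioredoxin systems, with Tkt and Taldo1 of the pentose phosphate pathway, whose enzymes make none. None of the 6 was called in limma's fit, all 6 differences were above 0 with a median of 0.22, and the lowest adjusted p was 0.199. G6pdx, which opens the pentose phosphate pathway, was at 9.47 ± 0.077 in ezetimibe and 9.06 ± 0.20 in control arrays, a difference of 0.41 ± 0.10 (SE), and Pgd, the next dehydrogenase of that pathway, differed by 0.28 ± 0.078. Without control 5, G6pdx was called.

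The remaining lists had 0 called genes in limma's fit. Of glutathione use and recycling, 0 of 11 genes were called and the median difference was 0.066, with Glrx, a glutaredoxin, at -0.19 ± 0.065 (SE) and Gpx4, the lipid hydroperoxide reductase, at 0.14 ± 0.071. The second Gpx4 probe differed by 0.020 ± 0.12. Of thioredoxins and peroxiredoxins, 0 of 11 were called and the median was 0.031, with Txnip, a thioredoxin inhibitor, at 0.22 ± 0.14 (SE) and Txnrd3 at 0.21 ± 0.14. The 5 tested genes of haem breakdown and iron storage had a median of 0.0079 and differences of no more than 0.055, among them Slc40a1, the iron exporter ferroportin, at 0.055 ± 0.084 and Blvrb, a biliverdin reductase, at 0.049 ± 0.077 (SE). The autophagy list, to which p62 belongs by function, had 8 tested genes with a median of -0.0067, with Nbr1, another cargo receptor, at -0.37 ± 0.18 and Gabarap at -0.10 ± 0.062 (SE). The second Nbr1 probe differed by -0.11 ± 0.16.

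Other stress programmes were also without a called gene. The 5 tested heat shock genes had a median of -0.081, with Hspb1 at -0.21 ± 0.14 and Hspa8 at -0.26 ± 0.23 (SE). The 6 ATF4 targets had a median of 0.036, with Ddit3 at -0.23 ± 0.13 and Asns, asparagine synthetase, at 0.24 ± 0.14 (SE). Their second probes differed by 0.16 ± 0.17 for Ddit3, with the opposite sign, and by 0.45 ± 0.14 for Asns, neither called. Of the aryl hydrocarbon receptor targets only Ahrr was tested, at 0.16 ± 0.16 (SE). The metal-binding Mt2 and Mt1 differed by 0.48 ± 0.25 and 0.074 ± 0.18 (SE).

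**Figure D4:**
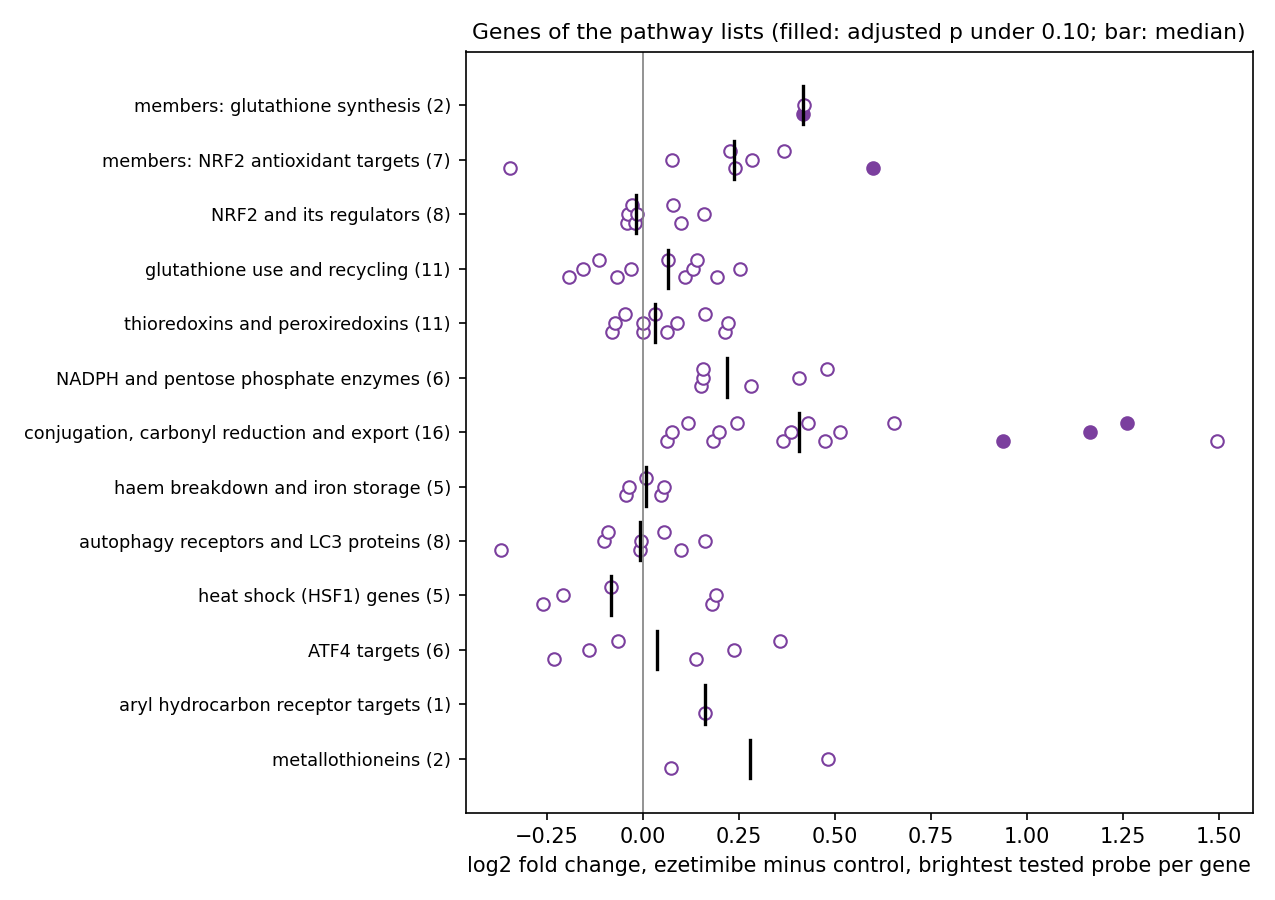
Difference of every tested gene (log2 fold change, ezetimibe minus control, brightest tested probe) by list, with the number of tested genes in brackets, filled where the adjusted p over all probes was under 0.10 and with the list's median as a bar. Called genes outside the members lie in the conjugation list only, where all 16 genes are above 0, and the regulators of NRF2 lie between -0.042 and 0.16.

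Levels of other cell types were compared over arrays with an exact permutation test within slides (525 splits, 2-sided, adjusted over 12 marker lists). None of the 12 lists reached an adjusted p under 0.10. The red blood cell markers, Hba-a1, Hbb-b1 and Alas2, all 3 tested and all 3 above 0, were at 7.04 to 7.79 in ezetimibe and 6.40 to 7.42 in control arrays, a difference of 0.65 (exact permutation p = 0.0190, adjusted p = 0.229). Their part in the member differences was not tested. The macrophage markers, a cell type rich in Hmox1, had 7 of 8 genes tested and were at 6.70 to 6.90 in ezetimibe and 6.45 to 7.08 in control arrays, with Cd163 detected on 0 arrays (difference 0.033, exact permutation p = 0.770). The Paneth cell markers, 3 of 4 tested and all 3 below 0, were at 8.86 to 9.75 in ezetimibe and 9.15 to 10.05 in control arrays (difference -0.44, exact permutation p = 0.0533, adjusted p = 0.320), and Mmp7 was detected on 0 arrays. The 3 tested duodenal markers, all above 0, differed by 0.31 (exact permutation p = 0.105, adjusted p = 0.419), and the 3 tested T and NK cell markers, all below 0 with Cd8a and Gzmb detected on 0 arrays, were at 7.86 to 9.32 in ezetimibe and 8.06 to 9.55 in control arrays (difference -0.53, exact permutation p = 0.158, adjusted p = 0.474). The part of these lists in the member differences was not tested. The 10 tested pancreas markers averaged 9.60 ± 3.03 in ezetimibe and 9.06 ± 2.03 in control arrays (difference 0.54, exact permutation p = 0.716). With the pancreatic level added to the model, Gclm and Nqo1 were called, as they were without control 4 and ezetimibe 4 (slide-adjusted levels 11.69 and 13.10). Control 5, the highest control array by this level at 12.12, was kept in the latter fit. The second Gss probe was not called in these fits (limma, adjusted p = 0.119 and 0.192). Its differences were 0.43 and 0.47, beside 0.44 in the fit with slide alone.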

How the data were processed

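Per the file headers, the unnormalized table gives for every probe the average bead intensity of an array, on a linear scale. A detection p-value stands beside each intensity, also per the file headers. A table of processed values was deposited too, as intensities. The series' design text names quantile normalization and Combat. Software versions and any offset or centring of the processed values are not given in the sources used. Their column medians lay between 236.09 and 236.297.

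The log2 levels come from background correction by the detection p-values, an added offset of 16 and quantile normalization (neqc, limma 3.58.1, R 4.3.3). A model with slide and treatment was fitted to all 11887 tested probes (lmFit, eBayes with an intensity trend), with Benjamini-Hochberg adjusted p under 0.10 as the threshold, after the 10% false discovery rate of the design text. Lists used the brightest tested probe of a gene. Correlations used 100000 resamples. The number of arrays limits the precision, and arrays are separate biological replicates per the labels.

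Symbols were updated through a RefSeq table of GRCm38.p6 (20439 probes current, 4135 renamed, 1102 unchanged, 21 with a date or number and left unnamed). Promoter windows are RefSeq's and were searched in Python 3.11.15. The members, lists and tests were chosen with earlier results of these data known. All probes of the members are described. Outside them, up to 4 called genes with the largest change per list are named or, where none was called, the 2 with the smallest p, with the 5 genes most like the members and exceptions said to be such. The fits were tested on simulated data. Alternatives changed background correction, scaling, source of values, filter, slide, position, moderation, weights, threshold, pancreas RNA, replicate number and the arrays used.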

Additional observations from a re-analysis of the deposited data

How the results depend on the processing

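All 9 tested members kept the sign of their brightest probe's difference under the alternatives that tested it, except Txnrd1 with position as covariate (-0.026). The member median ran from 0.23 to 0.42. It was highest with median scaling, where the median over all tested probes was itself 0.0845. Counts of calls were less steady, and the cause was not tested. Against 3 member genes called (any probe), 1 was called with median scaling, no filter, no slide term, position as a covariate, eBayes without trend or an adjusted p under 0.05, 0 in slide 1 alone, slide 2 alone or with the replicate number as a block (replicate block), and 1 to 4 with 1 array left out. Against 30 probes called in all, there were 17 without a slide term, 6 in slide 1 alone, 10 in slide 2 alone and 20 to 45 with 1 array left out. Of the genes on the pathway and stress lists outside the members, 3 were called. With median scaling or detection p under 0.01 on all arrays it was 5, in slide 1 alone 0, and with 1 array left out 2 to 5. Against 2 member pairs past the threshold (no share over all probe pairs was computed), 15 passed with median scaling and 0 to 4 with 1 array left out. With slide only removed 11 passed, but there the treatment difference on which the members were chosen stays in the values. With slide, treatment and the pancreas level removed 0 passed (permutation test, adjusted p = 0.109 for both pairs, r = 0.744 for Srxn1 with Osgin1 and 0.722 for Srxn1 with Hmox1). With the deposited processed values 0 passed (permutation test, adjusted p = 0.108, r = 0.739 and 0.720), where r had been 0.747 and 0.739. The product of slide and treatment gave 0 calls in each fit. Whether replicate numbers pair the arrays could not be decided from 5 same-numbered pairs. Of these, 2 had r over 0.1 (range -0.422 to 0.365), and 1 of 5 ezetimibe arrays correlated best with its own number. Dim probes (Gclc, Txnrd1, Hmox1) are limited by signal over background.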
